A study of Mus musculus with 7 samples.

Results

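The transcription factors that specify and maintain podocytes were examined in DNase-Seq of cultured mouse podocytes. The group holds 7 genes, *Wt1*, *Lmx1b*, *Tcf21*, *Foxc1*, *Foxc2*, *Foxd1* and *Pax2*, of the 21853 protein-coding genes with an annotated start. They were taken by name, and their accessibility was read from peaks that overlap 500 nt on either side of any protein-coding transcription start site (TSS) and from all peaks across each gene and up to 10 kb around it, on mm10 with GENCODE vM21. A promoter peak was listed in all 3 peak lists for 6 of the 7 genes, and for 21835 of all genes.

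Podocytes are the epithelial cells that wrap the glomerular capillaries with foot processes and form the slit diaphragm. *Wt1*, a zinc finger factor, is needed from the earliest kidney on and stays on in the mature podocyte. *Lmx1b*, a LIM-homeodomain factor mutated in nail-patella syndrome, and *Tcf21*, a basic helix-loop-helix (bHLH) factor, act as podocytes differentiate. *Foxc1* and *Foxc2* are forkhead factors of early podocytes, *Foxd1* is a forkhead factor best known from the stromal progenitors of the kidney and is also found in podocytes, and *Pax2*, a paired box factor of the nephron progenitors, is normally turned down as podocytes mature. DNaseI cuts DNA that nucleosomes leave free, so an open promoter releases many fragments. An open promoter is a state of chromatin and not a level of RNA.

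The cells were conditionally immortalised mouse podocytes, a line that carries a thermosensitive T antigen, used after differentiation and serum deprivation. The NG group had 5 mM glucose. The HG+NT and HG+miR-93 groups had 25 mM glucose, the former with a non-targeting mimic and the latter with a mimic of miR-93, both at 50 nM. Each lasted 36 h and has 2 replicates, and a single genomic DNA sample is the input. NG received no mimic in the labels, so glucose and mimic cannot be told apart between NG and HG+NT. The deposited lists pool the replicates of a condition, so differences between conditions have no replicate error beside them, and none was tested.

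NG, HG+NT and HG+miR-93 had 1036304, 846027 and 900109 listed peaks, of which only 73, 94 and 1 reached a −log10 q of 2. The number of fragments at each summit, the highest point of a peak, was solved from the fold and −log10 p of the peak. It is given here as pileup, that is fragments scaled to the depth of the input. The values in parentheses after a pileup are the bounds of its exact Poisson interval at 95%, for counting error alone. The median summit rested on 6, 10 and 12 fragments, and the lists on 1, 1.72 and 2.3 times the depth of NG. The fold, which is the pileup over the local mean of the input with 1 added to each, is given as a percentile of the promoter peaks of all genes in the same list. Over 10 marker genes of podocytes the median percentile was 58.5 in NG, 71.3 with HG+NT and 54.2 with HG+miR-93, against 50.9, 49.9 and 49.8 over all genes. *Actn4*, an actin crosslinker, stood at 87.7, 93.3 and 90.8. All 10 had a promoter peak in each list, but so did 21835 of the 21853 genes, so this does not set them apart.

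The forkhead genes and *Pax2* had the more open promoters of the group, *Lmx1b* and *Tcf21* the less open ones, and *Wt1* had no listed promoter peak in any condition. In HG+NT the pileup ran from 11.2 at *Foxc2* and 10.9 at *Pax2* over 8.83 at *Foxc1* and 8.57 at *Foxd1* down to 4.93 at *Lmx1b* and 3.64 at *Tcf21*. In that list the intervals of *Foxc2* and *Pax2* lay above those of *Lmx1b* and *Tcf21*, that of *Foxc1* lay narrowly above that of *Tcf21* (6.11 against 6.1), and neighbours in the order had overlapping intervals. In HG+miR-93 only the interval of *Pax2* lay above those of *Lmx1b* and *Tcf21*, and in NG the intervals of all 6 overlapped. The median percentile of fold over the 6 genes was 82.2 in NG, 88.6 with HG+NT and 72.7 with HG+miR-93, against the 50.9, 49.9 and 49.8 of all genes. By pileup instead of fold the medians were 57.5, 85.7 and 80.0, against 47.8, 50.0 and 50.9 over all genes. Among peaks with a −log10 p of at least 1 alone, which leaves 5 of the genes, the median percentile of fold was 77.2, 81.1 and 48.9, so that in HG+miR-93 the group no longer stood above percentile 50. *Foxc2* received a −log10 q of 0.338 in HG+NT, and every other promoter peak of the group had a −log10 q of 0.

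**Figure D1:**
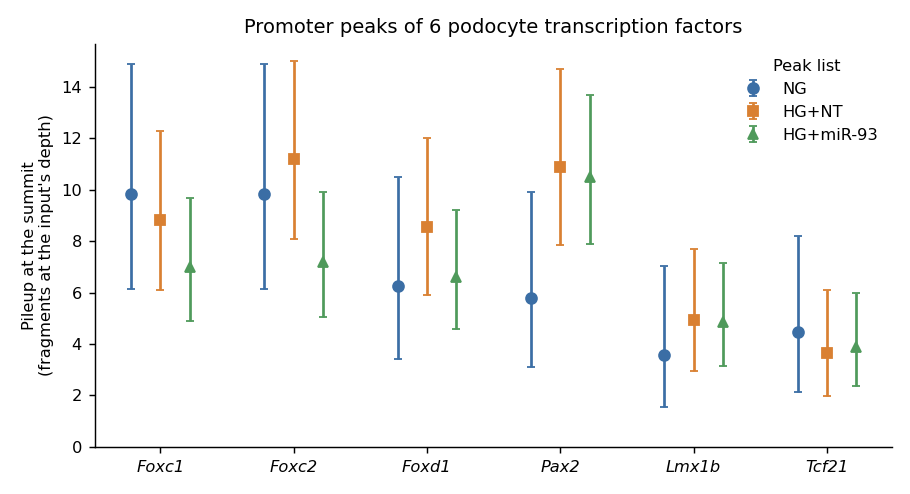
Pileup at the summit of the promoter peak (y axis, fragments at the depth of the input) for 6 genes (x axis) in the 3 lists. Points are the single pooled value of a list and bars are 95% exact Poisson intervals. The NG point of *Pax2* comes from an intronic peak, and the HG+miR-93 point of *Foxc2* from a summit at +9398 nt. The 3 intervals of each gene overlap, and *Lmx1b* and *Tcf21* stay at or below 4.93 while the other genes reach 8.57 to 11.2 in HG+NT.

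*Foxc1* (ENSMUSG00000050295.4, chromosome 13, 31806633 to 31812476, plus strand) is a gene with a single TSS. Its promoter peak held 22 fragments in NG, 34 with HG+NT and 36 with HG+miR-93, which are pileups of 9.83 (6.16 to 14.9), 8.83 (6.11 to 12.3) and 7.0 (4.9 to 9.69). The 3 summits fell at −16, −39 and +90 nt, counted from the TSS, the first pair just before the gene and the last in its untranslated exon. The pileup was highest in NG and lowest in HG+miR-93, and all 3 intervals overlapped. By fold *Foxc1* stood at percentile 88.6, 91.6 and 70.9. The change between HG+NT and HG+miR-93 was −20.7 points with a counting interval of −57.9 to 20.7. The remaining summits in the *Foxc1* region were lower. Their pileups reached 4.91 (2.45 to 8.79) in NG, 4.67 (2.77 to 7.39) with HG+NT and 5.05 (3.3 to 7.4) with HG+miR-93. These intervals overlapped those of the promoter peak.

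*Foxc2* (ENSMUSG00000046714.7, chromosome 8, 121116171 to 121118895, plus strand) had the highest pileup of the group in HG+NT, with an interval that overlapped that of *Pax2*, while the fold was higher at *Foxd1*. There its peak of 4496 bp had its summit at −18 nt, with 43 fragments, a pileup of 11.2 (8.08 to 15) and a fold of 3.58 at percentile 98.8. In NG the summit lay at +276 nt in the untranslated exon, with 22 fragments, a pileup of 9.83 (6.16 to 14.9) and a percentile of 88.6. In HG+miR-93 the peak that overlaps the promoter was 15960 bp wide and had its summit at +9398 nt, far beyond the gene, with 37 fragments, a pileup of 7.19 (5.06 to 9.91) and a percentile of 74.6. The HG+miR-93 list thus names no summit at the *Foxc2* promoter itself. The change of percentile between HG+NT and HG+miR-93 was −24.2 points (−62.0 to −1.95), and its interval lay below 0. It compares a summit at −18 nt with one at +9398 nt, and the pileup intervals of those peaks overlapped.

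The surroundings of *Foxc2* are crowded with genes, and 3 further sites recurred there. *Mthfsd*, a gene on the opposite strand, starts upstream of *Foxc2*. Summits at −7811, −8045 and −7786 nt from the *Foxc2* start, all within *Mthfsd* close to its start, had pileups of 8.93 (5.46 to 13.8) in NG, 11.7 (8.52 to 15.6) with HG+NT and 10.7 (8.05 to 13.9) with HG+miR-93. These were as high as the *Foxc2* promoter. Summits at −2580, −2688 and −2533 nt had pileups of 6.7 (3.75 to 11), 6.49 (4.2 to 9.58) and 6.02 (4.09 to 8.55), which differed by less than their counting error. A further site, at +9514, +9518 and +9398 nt and before the neighbouring forkhead gene *Foxl1*, had pileups of 4.91 (2.45 to 8.79), 7.27 (4.83 to 10.5) and 7.19 (5.06 to 9.91). At this site, which is where the HG+miR-93 peak has its summit, HG+NT and HG+miR-93 were nearly level. All of it lies inside the long readthrough annotation *Gm20388*, so *Foxc2* is not the only annotated gene at these positions.

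*Foxd1* (ENSMUSG00000078302.5, chromosome 13, 98354242 to 98359305, plus strand) had the highest folds of the group in NG and HG+NT, on a low local mean of the input. Its promoter held 14 fragments in NG, 33 with HG+NT and 34 with HG+miR-93. The pileups were 6.25 (3.42 to 10.5), 8.57 (5.9 to 12.0) and 6.61 (4.58 to 9.23), highest in HG+NT and overlapping throughout. The local mean of the input was 1.52, 1.5 and 2.0 fragments, which gave folds of 2.88, 3.83 and 2.54 and percentiles of 91.9, 99.2 and 93.3. By pileup the percentiles were lower, at 59.1, 85.2 and 78.2. The 3 summits lay at +213, +351 and +278 nt, all in the untranslated exon. A further site downstream of the gene, with summits at +11964, +11843 and +11997 nt, had pileups of 4.91 (2.45 to 8.79), 6.23 (3.99 to 9.27) and 4.86 (3.14 to 7.17), and a site at −3798 nt in NG, shared within 150 bp by all lists, had 3.57 (1.54 to 7.04), 3.9 (2.18 to 6.42) and 5.44 (3.62 to 7.86). *Foxd1* has no other annotated gene within 10 kb.

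*Pax2* (ENSMUSG00000004231.15, chromosome 19, 44756045 to 44837871, plus strand) had almost equal pileup at its first TSS in all conditions, while the fold there was lowest in NG. The peaks at its first TSS had summits at +85, +561 and +464 nt in the untranslated exon, with 24, 42 and 54 fragments and pileups of 10.7 (6.87 to 15.9) in NG, 10.9 (7.86 to 14.7) with HG+NT and 10.5 (7.88 to 13.7) with HG+miR-93. The input was not level there. Its local mean was 7.0 fragments at the NG summit, 4.0 at the HG+NT summit and 3.2 at the HG+miR-93 summit, so the folds were 1.46, 2.38 and 2.74. In NG the fold was therefore higher at another peak, whose summit lay in an intron at +2183 nt from the last of the 3 TSSs, with 13 fragments and a pileup of 5.81 (3.09 to 9.93), and this peak set the NG percentile of 75.9. The percentiles in HG+NT and HG+miR-93, set by the peaks at the first TSS, were 85.6 and 96.4. A rise of *Pax2* with high glucose, 9.71 points by fold (−31.5 to 71.1), thus compared 2 different sites, and its size depended on the peak and the measure. It was 28.6 points when promoters were ranked by −log10 p and 36.7 points by pileup. With the peak of most fragments, which is the one at the first TSS in each list, it was 62.3 points by fold but 5.73 points by pileup, the latter chosen after the data were seen. Relative to chromosome 19 as a whole it was −4.52 points.

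*Pax2* spans 81827 bp, and its region held 62 peaks in NG, 27 with HG+NT and 19 with HG+miR-93, which were wider the fewer they were (median widths 950, 2399 and 2888 bp). Upstream, summits at −9271, −9473 and −9353 nt marked a site with pileups of 4.91 (2.45 to 8.79), 7.01 (4.62 to 10.2) and 6.41 (4.41 to 9.01), next to a start that RefSeq places at 44746601. At −5022 nt the NG list had a summit with a pileup of 8.04 (4.76 to 12.7) that no other list names, as the wide HG+NT and HG+miR-93 peaks run across it. Within the gene, 1 intronic site had summits of all lists within 150 bp of each other (+58148 nt in NG), with pileups of 4.02 (1.84 to 7.63), 3.38 (1.8 to 5.77) and 3.69 (2.22 to 5.77). Near the end of the gene, summits at +82088 nt in NG and +80128 nt in HG+miR-93 had pileups of 8.04 (4.76 to 12.7) and 6.61 (4.58 to 9.23). The HG+NT list had a summit at +79770 nt with a pileup of 5.97 (3.79 to 8.96) on a higher local mean of the input, 5.0 against 2.4 fragments in both other lists, and the 3 intervals overlapped.

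*Lmx1b* (ENSMUSG00000038765.13, chromosome 2, 33560965 to 33640511, minus strand) had peaks across its promoter but no summit at it. The summits of these peaks fell at −818, −4343 and −3521 nt, before the start, in the antisense gene *C130021I20Rik*, with 8, 19 and 25 fragments. The pileups were 3.57 (1.54 to 7.04) in NG, 4.93 (2.97 to 7.7) with HG+NT and 4.86 (3.14 to 7.17) with HG+miR-93, and the percentiles of fold were 50.9, 73.4 and 69.3. RefSeq places the start of *Lmx1b* at −587 nt from the GENCODE start, and the NG summit lay just before it. With intervals that overlapped over most of their length, no order of the conditions could be read. The highest peak of the NG and HG+NT lists in the *Lmx1b* region by −log10 p lay inside the gene, at +8297 and +8235 nt, with pileups of 6.25 (3.42 to 10.5) and 5.71 (3.58 to 8.65) on a local mean of the input of 1.43 fragments. In HG+miR-93 the peak across this site, 10397 bp wide, had its summit at +16693 nt with a pileup of 4.86 (3.14 to 7.17).

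*Tcf21* (ENSMUSG00000045680.8, chromosome 10, 22817281 to 22820174, minus strand) was the least open promoter with a peak in HG+NT and HG+miR-93. Its peaks, 3650 to 3714 bp wide, covered nearly the whole gene with 10, 14 and 20 fragments and pileups of 4.47 (2.14 to 8.21) in NG, 3.64 (1.99 to 6.1) with HG+NT and 3.89 (2.37 to 6.0) with HG+miR-93. The summits moved from +8 nt to −377 nt and +773 nt. By fold the percentiles were 46.4, 61.8 and 17.5, and the change between HG+NT and HG+miR-93 was −44.3 points (−81.4 to 14.4). The pileups hardly moved, and the local mean of the input was 1.43 fragments at the HG+NT summit and 3.0 at the HG+miR-93 summit. None of the 12, 13 and 13 peaks of the *Tcf21* region was among the 20000 strongest of its list.

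**Figure D2:**
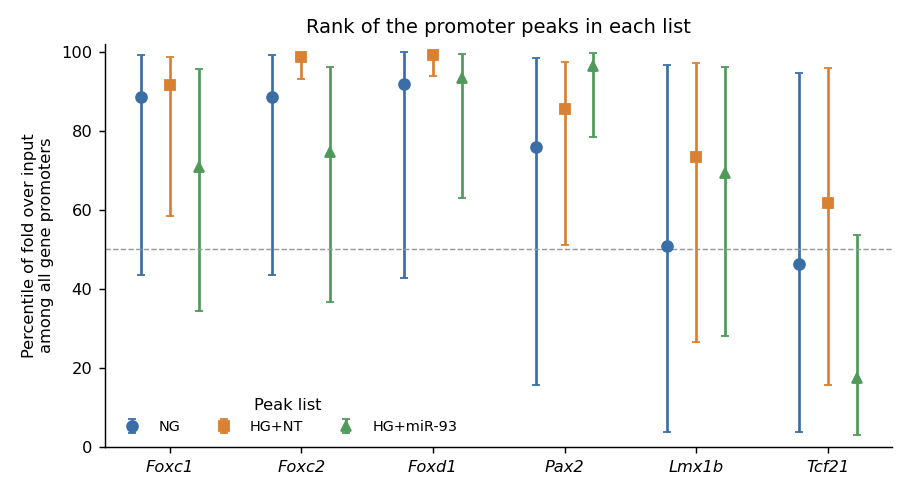
Percentile of fold over input among the promoter peaks of all genes (y axis) for 6 genes (x axis) in the 3 lists. Bars run between the percentiles at the ends of the 95% counting interval of the fragments, with the input held fixed, and the dashed line marks percentile 50. *Foxc2* and *Foxd1* stand at 98.8 and 99.2 in HG+NT, and *Tcf21* stands at 17.5 in HG+miR-93.

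*Wt1* (ENSMUSG00000016458.14, chromosome 2, 105126529 to 105173616, plus strand) has 6 protein-coding TSSs between 105126529 and 105130883, and no listed peak overlapped any of their promoters. The same peak-free stretch was found in each list, from 105118797 to 105131727 (12931 bp) in NG, from 105118773 to 105131682 (12910 bp) with HG+NT and from 105118797 to 105131747 (12951 bp) with HG+miR-93. The median distance between neighbouring peaks was 120, 111 and 117 bp, and distances at least as long as this one occurred 7, 8 and 8 times in a list, this one included. Only 11, 16 and 17 of the 21853 genes lacked a promoter peak. Since the lists reach down to weak peaks with folds below 1, such a stretch says that nothing was listed and gives no level, and no percentile or pileup is given for the *Wt1* promoter. Why it is empty was not tested.

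The rest of *Wt1* held peaks of low pileup, although a few of them ranked high in their lists. The first peak past the empty stretch had its summit at +5341, +5256 and +6486 nt, with pileups of 3.13 (1.26 to 6.44), 2.86 (1.43 to 5.11) and 3.89 (2.37 to 6.0). In all 22, 20 and 17 peaks of the region the highest −log10 p was 1.81 in each list, which placed those peaks at percentiles 96.9, 98.2 and 98.3 of all peaks, and the highest pileups were 4.47 in NG, 5.19 with HG+NT and 4.86 with HG+miR-93. The sole site with summits of all lists within 150 bp lay in an intron at +9536 nt in NG, and its pileups of 0.893 (0.108 to 3.23), 0.779 (0.161 to 2.28) and 1.75 (0.8 to 3.32) were below or close to the background mean of the input, 1.43.

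**Figure D3:**
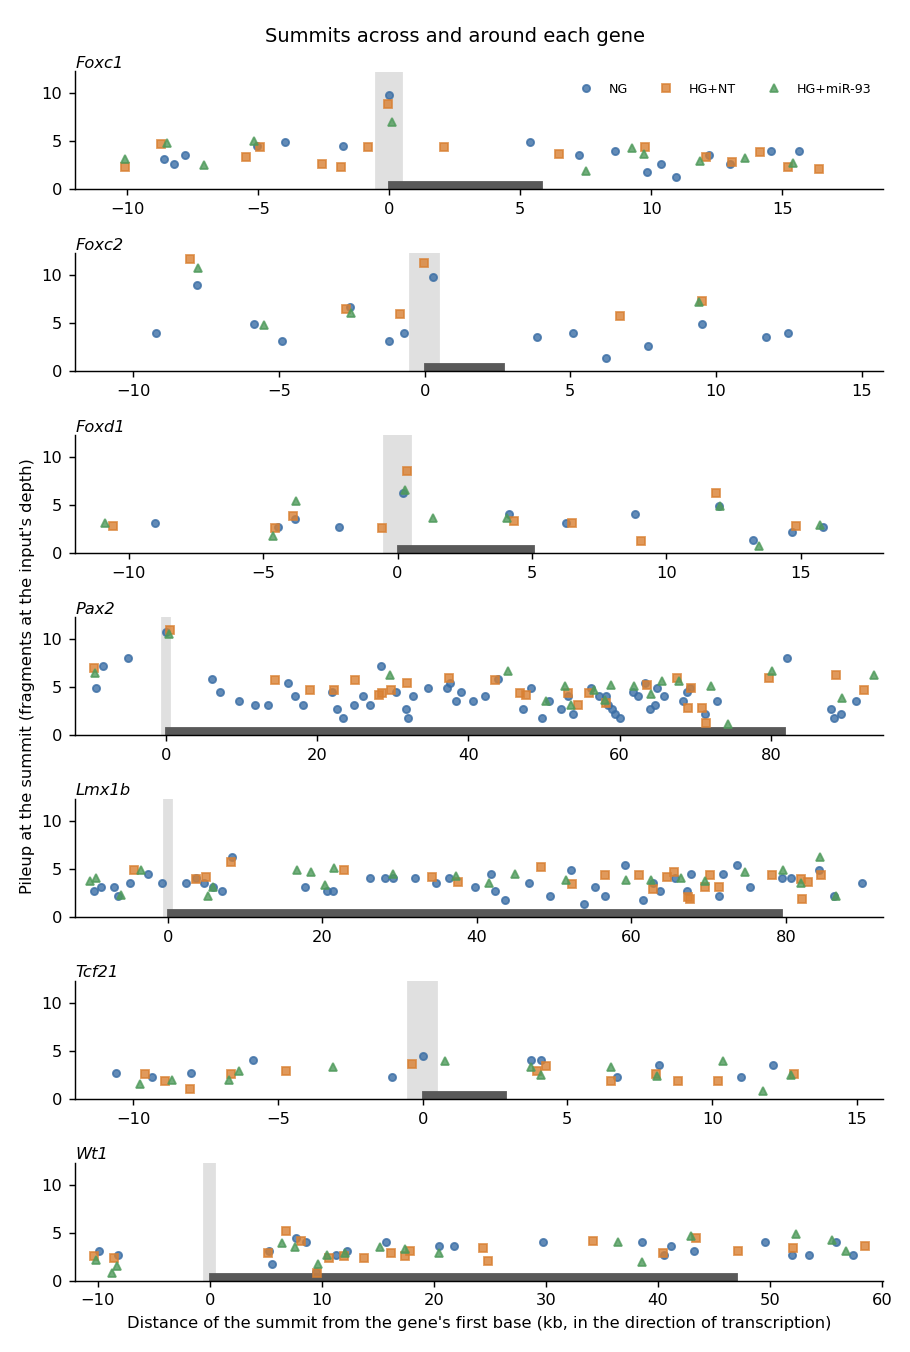
Summits of all peaks in the region of each gene, with distance from the first base of the gene (x axis, kb, in the direction of transcription) and pileup (y axis, fragments at the depth of the input). Dark bars mark the gene, grey bands 500 nt on either side of its first base, and symbols the 3 lists. The highest summits of *Foxc1*, *Foxd1* and *Pax2* stand at or near their starts in each list, and *Pax2* has others of up to 8.04 in NG. *Foxc2* has high summits at its start in NG and HG+NT and near −8 kb in each list. The start of *Wt1* lies in a stretch of 12910 to 12951 bp with no peak.

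The sequences before the RefSeq starts were examined, since some of the summits lie inside or near them. RefSeq promoters (GRCm38.p6) were given for 5 of the 7 genes, in 7 entries, and those of *Wt1* and *Foxc2* were not used. The 250 bases before the start are shown 5′ to 3′ on the strand of the gene. Capitals mark matches, on either strand, to the GC box GGGCGG, the CCAAT box CCAAT and the E box CANNTG, the site of bHLH factors. The stretch of *Foxc1* (chr13:31806396-31806645, plus strand) is shown because the NG and HG+NT summits lie inside it, that of *Foxd1* (chr13:98353995-98354244, plus strand) because its summits follow directly, and that of *Pax2* (chr19:44756656-44756905, plus strand) because both high-glucose summits lie just before it. A second *Pax2* stretch (chr19:44746351-44746600, plus strand) holds the HG+NT summit of the upstream site. Those of *Lmx1b* (chr2:33641099-33641348, minus strand) and *Tcf21* (chr10:22820144-22820393, minus strand) hold the NG summits of the less open promoters.
Foxc1: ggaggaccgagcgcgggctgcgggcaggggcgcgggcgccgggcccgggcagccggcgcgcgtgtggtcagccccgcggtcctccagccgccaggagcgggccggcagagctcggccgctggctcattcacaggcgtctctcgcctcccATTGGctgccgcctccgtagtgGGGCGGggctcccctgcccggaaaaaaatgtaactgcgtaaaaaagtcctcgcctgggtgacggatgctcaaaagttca
Foxd1: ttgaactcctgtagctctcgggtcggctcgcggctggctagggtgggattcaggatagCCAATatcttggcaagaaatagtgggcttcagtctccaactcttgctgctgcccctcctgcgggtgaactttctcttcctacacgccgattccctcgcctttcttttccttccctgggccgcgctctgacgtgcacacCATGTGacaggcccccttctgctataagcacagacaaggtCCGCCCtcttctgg
Pax2, start within the gene: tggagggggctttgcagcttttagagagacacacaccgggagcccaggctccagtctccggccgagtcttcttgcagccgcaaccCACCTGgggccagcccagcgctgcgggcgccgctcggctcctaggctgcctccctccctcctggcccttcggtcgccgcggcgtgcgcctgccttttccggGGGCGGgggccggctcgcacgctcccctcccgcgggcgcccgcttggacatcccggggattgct
Pax2, upstream start: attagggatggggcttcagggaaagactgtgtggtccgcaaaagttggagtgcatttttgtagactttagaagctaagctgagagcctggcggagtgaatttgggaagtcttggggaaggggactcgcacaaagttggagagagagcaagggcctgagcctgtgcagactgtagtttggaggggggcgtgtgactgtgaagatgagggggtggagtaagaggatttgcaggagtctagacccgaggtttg
Lmx1b: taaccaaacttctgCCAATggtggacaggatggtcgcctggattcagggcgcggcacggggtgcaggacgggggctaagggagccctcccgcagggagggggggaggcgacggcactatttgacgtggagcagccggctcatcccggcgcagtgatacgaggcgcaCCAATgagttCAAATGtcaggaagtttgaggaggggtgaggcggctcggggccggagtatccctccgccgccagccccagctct
Tcf21: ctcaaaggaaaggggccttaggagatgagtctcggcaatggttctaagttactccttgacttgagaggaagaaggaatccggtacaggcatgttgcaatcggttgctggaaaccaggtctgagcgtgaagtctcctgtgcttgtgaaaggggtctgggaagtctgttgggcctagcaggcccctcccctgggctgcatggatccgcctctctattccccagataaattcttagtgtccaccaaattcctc
The GC box was found in *Foxc1*, *Foxd1* and 2 of the 3 *Pax2* entries, and in 32.7% of all 32851 promoters. The CCAAT box was found once in *Foxc1* and *Foxd1* and 2 times in *Lmx1b*, and in 33.8% of all promoters. An E box was found in *Foxd1*, *Lmx1b* and 2 of the 3 *Pax2* entries, and in 66.2% of all promoters. The stretch of *Tcf21* and that of the upstream *Pax2* start held none of these. Also searched, and found in 0 of the 7 entries, were the TATA box TATAAA (12.4% of all promoters), the forkhead motif GTAAACA (3.17%), the LIM-homeodomain motif TAATTA (4.84%) and the motif GCGTGGG shared by Wt1 and Egr proteins (4.3%). GGGCGG and GCGTGGG may overlap by their G runs.

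The promoters of the group ranged from poor to rich in CpG, a dinucleotide that is frequent at many promoters. The ratio of observed to expected CpG was 0.928 at *Foxc1*, 0.881 at the most CpG-rich *Pax2* entry, 0.738 at *Lmx1b*, 0.6 at *Foxd1* and 0.293 at *Tcf21*, with a median of 0.373 over all promoters. Across 16527 genes with both values, Spearman's rho of this ratio with the pileup was 0.621 in NG, 0.596 with HG+NT and 0.57 with HG+miR-93, and with the fold it was 0.383, 0.308 and 0.244. Genes are not independent, the lists share 1 input, and base composition also acts on sequencing itself, so these are descriptions. *Lmx1b* had a mean pileup percentile of 45.2, lower than most promoters of its CpG content, and *Foxd1*, with 74.2, was higher than most.

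**Figure D4:**
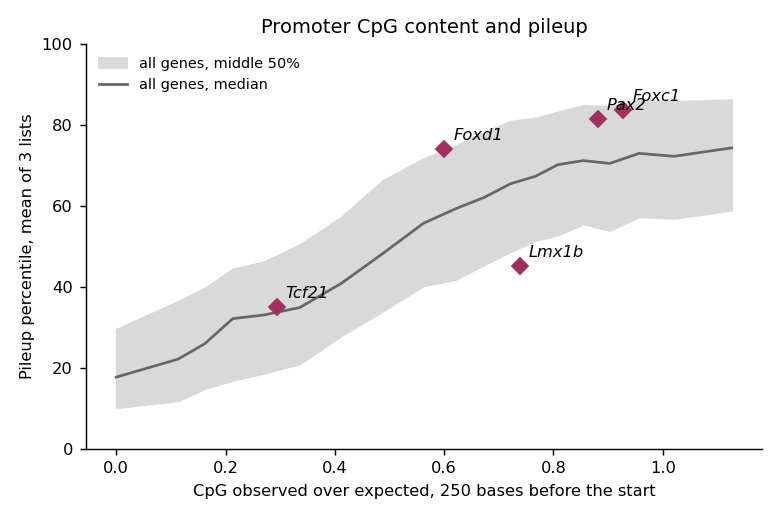
Ratio of observed to expected CpG in the 250 bases before the RefSeq start (x axis) and pileup percentile of the promoter peak, averaged over the 3 lists (y axis). The line and band are the median and the middle 50% of bins of genes ordered by this ratio, and diamonds are the 5 genes with a sequence. *Foxc1* (0.928) and *Pax2* (0.881) lie at the CpG-rich end, *Tcf21* at 0.293 lies near the median of its bin, and *Lmx1b* at 0.738 lies below the band.

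By pileup, the counting intervals of the conditions overlapped at each promoter of the group that had a peak. Intervals can overlap although a difference exceeds its own counting error, which was not computed. Pileup intervals that did not overlap were found for 0 of 6 genes in each direction. Over all 21835 genes, HG+NT lay above NG at 0.719% and below NG at 2.19%, HG+miR-93 lay above HG+NT at 0.417% and below HG+NT at 1.88%, and HG+miR-93 lay above NG at 0.316% and below NG at 3.49%. Beside shares this low, 0 of 6 is no result about the group. The count uses the chosen peaks, by which *Pax2* went from 5.81 in NG, at its intronic summit, to 10.9 with HG+NT. At its first TSS *Pax2* had 10.7 in NG, and with that value its differences and those of *Tcf21* were the smallest.

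By percentile of fold, all 6 genes stood higher in HG+NT than in NG, by 2.99 points at *Foxc1* up to 22.5 points at *Lmx1b*, and the interval lay above 0 for none of them. Over all genes the interval lay above 0 at 3.35% and below 0 at 3.9%. Ranked by pileup, *Tcf21* instead changed by −13.2 points, and relative to its chromosome *Pax2* changed by −4.52 points. From HG+NT to HG+miR-93, 5 of the 6 genes stood lower and *Pax2* stood 10.8 points higher (−10.6 to 45.4). Ranked by pileup, *Lmx1b* and *Tcf21* also stood higher, by 0.353 and 5.12 points. The shares of all genes that stood higher or lower were not counted. The 6 of 6 and 5 of 6 are therefore no result about the group. The interval of the change lay below 0 for 1 of 6 genes, *Foxc2*, against 4.81% of all genes, and above 0 for 0 of 6, against 3.63%. These intervals hold the local mean of the input fixed, so its own counting error is left out. Both comparisons share the HG+NT list, so the 2 changes of a gene are not independent. From NG to HG+NT the ranks of *Foxc2* and *Pax2* rose along with the medians of their chromosomes. Those of *Lmx1b*, *Tcf21*, *Foxc1* and *Foxd1* rose while the medians of theirs fell. From HG+NT to HG+miR-93 the medians of chromosomes 8 and 19 hardly moved. The median percentile of all promoters was 50.9, 72.6 and 71.2 on chromosome 8 and 54.1, 68.3 and 68.1 on chromosome 19 (NG first, HG+miR-93 last), while it went from 50.9 to 42.4 and 42.4 on chromosome 2 and from 50.9 to 43.0 and 44.4 on chromosome 13. Taken relative to the chromosome, the change of *Foxc2* from NG to HG+NT was −11.5 points instead of 10.2. The part of the chromosomes in these changes was not tested further.

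The same promoter site was listed in each condition at *Foxc1* and *Foxd1*, whose summits lay within 150 bp of each other in all 3 lists. Between NG and HG+NT this held for 2 of 6 genes against 26.7% of all genes, between HG+NT and HG+miR-93 for 3 of 6, with *Pax2*, against 30.7%, and between NG and HG+miR-93 for 2 of 6 against 25.5%. The counts are near those shares.

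The strongest peaks were taken as the 20000 with the highest −log10 p and all that tie with the last of them. Ties at a −log10 p of 1.81 raised this to 51878 peaks in NG, 21479 with HG+NT and 21234 with HG+miR-93, so counts can be read only within a list. In NG such a peak overlapped the promoters of *Foxc1*, *Foxc2* and *Foxd1*, 3 of 7 genes, against 38.5% of all genes. In HG+NT it was those and *Pax2*, 4 of 7 against 26.4%. In HG+miR-93 it was *Foxc2*, *Foxd1* and *Pax2*, 3 of 7 against 21.9%. Across the gene and 10 kb around it, 6 of 7 genes had such a peak in NG (72.4% of all genes), 6 with HG+NT (51.9%) and 5 with HG+miR-93 (49.0%). *Tcf21* was the gene without one in NG and HG+NT, and *Tcf21* and *Foxc1* were without one in HG+miR-93.

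Other regulators gave a scale for these ranks. Of 23 further transcription regulators expressed in podocytes, the median percentile was 77.6 in NG, 70.4 with HG+NT and 68.7 with HG+miR-93. *Nr3c1*, the glucocorticoid receptor, stood at 99.8, 95.7 and 98.4. Over 24 regulators of kidney development the medians were 71.2, 66.4 and 69.9, with *Six2*, which keeps nephron progenitors undifferentiated, at 2.85, 71.1 and 19.8. By pileup the medians were 82.7, 84.0 and 74.5 over the 23 regulators and 57.5, 59.8 and 61.4 over the 24. Those of the 6 members were 57.5, 85.7 and 80.0, so in NG the 23 regulators stood higher by pileup.

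Within their families, by the fold of the chosen peaks, *Pax2* and the forkhead genes stood above the median, and *Lmx1b* and *Tcf21* did not stand apart. The other 41 forkhead genes had medians of 57.3, 57.1 and 54.9, and reached from *Foxi1* at 0.85, 2.08 and 5.06 to *Foxf1*, the neighbour of *Foxc2* on chromosome 8, at 96.5 in NG and 99.9 in HG+NT, where it outranked every member. The 8 other Pax genes had medians of 53.7, 57.3 and 65.9, all below *Pax2*. In NG this rests on the intronic peak of *Pax2*, with a fold of 2.27, and the fold at its first TSS was lower, at 1.46. The 11 other LIM-homeobox genes had medians of 66.0, 59.8 and 69.3, and *Lmx1b* with 50.9, 73.4 and 69.3 was not apart from them. The 11 other mesodermal bHLH genes had medians of 31.8, 57.7 and 54.9, on both sides of *Tcf21*, and among them *Twist2* stood at 90.4, 98.3 and 98.5. These are descriptions of ranks, and no list was tested against another.

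**Figure D5:**
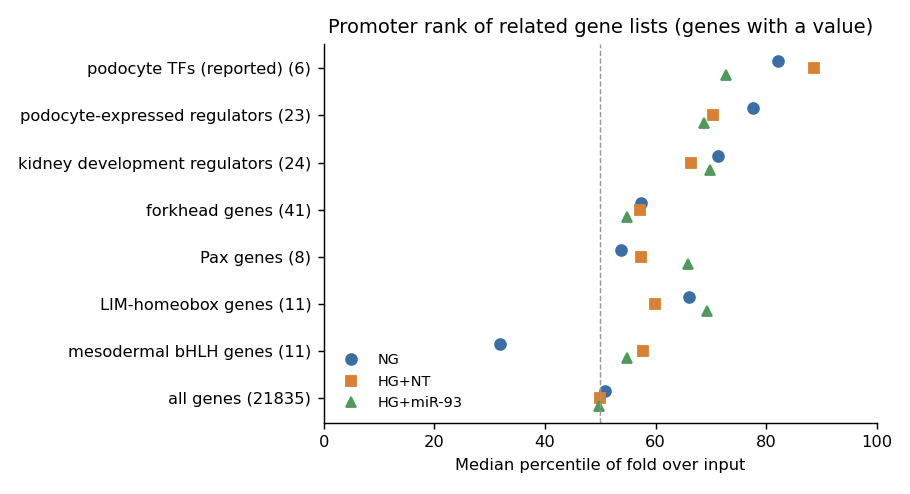
Median percentile of fold over input (x axis) of the promoters of related gene lists (y axis, with the number of genes with a value) in the 3 lists, with a dashed line at percentile 50. The 6 podocyte transcription factors stand at 72.7 to 88.6, the other regulators expressed in podocytes at 68.7 to 77.6, and all genes at 49.8 to 50.9. By pileup, which is not shown, those other regulators stand above the 6 in NG (82.7 against 57.5).

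The marker promoters of other kidney cells had lower medians of fold than the podocyte markers, except those of mesangium and fibroblasts in HG+miR-93. By pileup this order did not hold. There the podocyte markers stood at 51.8, 52.2 and 56.2, the proximal tubule genes at 55.0, 50.7 and 54.9, and those of mesangium and fibroblasts at 42.2, 61.5 and 56.5. The median percentiles of fold were 52.3, 44.5 and 49.8 over 6 proximal tubule genes, 23.7, 53.5 and 46.5 over 6 genes of the distal tubule and collecting duct, 51.8, 58.4 and 46.8 over 6 endothelial genes and 23.6, 40.0 and 51.9 over 6 leukocyte genes. Over 6 genes of mesangium and fibroblasts they were 43.7, 70.3 and 82.0, but its genes did not move together. *Acta2*, a smooth muscle actin on chromosome 19, stood at 15.5, 95.8 and 95.5, while *Pdgfra*, a growth factor receptor, stood at 62.7, 36.4 and 87.2. *Des*, which encodes the intermediate filament desmin, stood at 81.3 in NG and 69.3 with HG+miR-93 and was likewise lowest in HG+NT. The part of other cell types in the values of the transcription factors was not tested.

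The genes whose 3 pileup percentiles were most like those of a member were *Sh3rf1* for *Foxc1*, *Arrdc1* for *Foxc2*, *Emd* for *Foxd1*, *Zfp647* for *Pax2*, *Myocd* for *Lmx1b* and *Zim1* for *Tcf21*. The Euclidean distances over the 3 lists were 0 to 1.81 percentile points, and between 11 and 106 genes lay within 5 points, so that the choice among them is loose.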

How the data were processed

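The authors ran DNase-Seq on 6 podocyte libraries, 2 of each condition, and on 1 input of genomic DNA. Per the labels and the methods they demultiplexed with CASAVA 1.8.2. Adapters and poor bases were removed with TrimGalore!, Bowtie aligned the reads to mm10, duplicates were dropped, and MACS2 called the peaks, with the input as control. The versions and parameters of these tools are not given in the sources used here. In the deposited lists, 1 per condition, the fold is a ratio, pileup at the summit plus 1 over local mean of the input plus 1, and the deposited −log10 p and −log10 q rest on a Poisson model of the same numbers. The lists are named as joint sets, and the replicates were therefore taken as pooled.

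Fragments were solved for each peak from its fold and −log10 p, with the local mean of the input held to its background of 1.428 or to steps of 0.02, which were noticed after the values had been seen. A single solution was found for nearly all peaks (NG 100.0%, HG+NT 100.0%, HG+miR-93 99.99%), and for 0.0411%, 0.146% and 0.16% of mismatched pairs was any solution found. The solving, the overlaps and the intervals were tested on simulated data. GENCODE vM21 gave the TSSs, protein-coding transcripts alone. Of several peaks at a promoter the one with the highest fold was taken, and ranked among the 21835 genes with a promoter peak in all lists. Peaks were compared by summits within 150 bp and by exact Poisson intervals of the pileup (95%). Intervals of a percentile take the local mean of the input as known, and those of a change of percentile combine the intervals of both lists. Promoter sequences were those of RefSeq (GRCm38.p6). Named genes were the members, the podocyte markers, the 2 highest and 2 lowest genes by mean percentile of each comparison list, of which a part is named, and the nearest gene to each member.

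The members, lists and rules were chosen with earlier results of these data known. Alternatives were ranking by −log10 p or pileup, the peak with the most fragments, summits inside the promoter, promoters of 1000 nt on either side, correction for the chromosome, a −log10 p of at least 1, 5000 or 50000 strongest peaks, and other overlaps. Added after seeing the data were the peak with the most fragments ranked by pileup, and fragments solved without the steps of the local mean. The authors' counts of reads around each TSS and RNA were not analysed here. The values of some genes of the comparison lists are not reported here. The tools were matplotlib 3.10.9, SciPy 1.17.1, pandas 2.3.3 and numpy 2.4.6 under Python 3.11.15.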

Additional observations from a re-analysis of the deposited data

How the results depend on the processing

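With 50000 instead of 20000 strongest peaks, 5 instead of 3 of the 7 genes had such a peak at the promoter in HG+miR-93, against 41.9% of all genes. When any shared base counted as coincidence, in place of summits within 150 bp, 6 of 6 promoters coincided between NG and HG+NT, 6 between HG+NT and HG+miR-93 and 6 between NG and HG+miR-93, against 84.6%, 85.1% and 83.9% of all genes, since wide peaks cover most of the genome. Relative to its chromosome, *Foxc2* changed by −11.5 points from NG to HG+NT. The other 104 values that answer a comparison and 109 values of single genes stayed within their counting interval or within 1.5 times their count. Among those, the median of the group in HG+miR-93 went from 72.7 to 48.9 with a −log10 p of at least 1, and the change of *Pax2* from NG to HG+NT ran from −4.52 to 62.3 points. The intervals are wide, for *Tcf21* −51.4 to 70.0 points from NG to HG+NT, so even a change of sign could stay within them. The fall of *Foxc2* from HG+NT to HG+miR-93 kept its sign in 9 of 9 alternatives, from −48.0 to −9.84 points. Each of them took the HG+miR-93 value from the summit at +9398 nt, so the sign says nothing of a fall at the promoter itself. *Tcf21* kept its signs in 6 of 8 alternatives in both comparisons. With a summit required inside the promoter, only 2 genes, *Foxc1* and *Foxd1*, kept a value, since the others lacked such a summit in some list. *Tcf21* had no value with a −log10 p of at least 1. No paired analysis was possible because the lists pool the replicates, and leaving out a replicate was not possible for the same reason. The depth limits what single promoters can show: 8 to 54 fragments stood behind each chosen value, and a counting interval holds no biological spread.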
